A study of Mus musculus with 35 samples.

Results

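The 7 genes described here encode the MiT/TFE transcription factors (Tfeb, Tfe3, Mitf and Tfec) and the folliculin complex (Flcn and its partners Fnip1 and Fnip2). They were taken by name from 31053 genes counted in 35 mouse kidney libraries, and all 7 were present. Folliculin, bound to an FNIP protein, activates the RagC and RagD GTPases at the lysosome, which lets mTORC1 phosphorylate TFEB and TFE3 and keep them in the cytoplasm. Without folliculin the factors enter the nucleus and turn on lysosomal genes. The regulation is thus known to act mainly on the location of the proteins, and the counts here report the amount of transcript only.

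Kidneys were taken at postnatal day 2 from C57BL/6 mice of 3 crosses, and each library is labelled as a biological replicate. From the Flcn cross came 5 kidneys with the label Flcn KO (Flcn flox/flox; Ksp-cre+), called KO-labelled below, and 5 controls. From the Flcn/Tfeb cross came 4 with the label Flcn/Tfeb DKO (Ksp-cre+ with both Tfeb flox/flox and Flcn flox/flox) and 3 controls. From the Flcn/Tfe3 cross came 10 with the label Flcn/Tfe3 DKO (Tfe3-/- with Flcn flox/flox and Ksp-cre+) and 8 controls. They came in 2 deposited tables, called here set B (6 and 3, the in vivo table) and set C (4 and 5, the CDM table). The first 2 crosses are called set A. The labels of the controls give no alleles, and the study describes its controls as Flcn flox/flox. The Ksp-cre transgene is driven by the Cdh16 promoter, which is active in collecting ducts, distal tubules and thick ascending limbs, so other kidney cells are designed to keep Flcn and Tfeb, whereas the Tfe3-/- allele is by design in all cells. Sex is not in the labels, and mice of both sexes were used. Libraries held 1652649 to 4239356 reads counted on genes (median 2992169), and 3 counts, the most that a count of 0 allows, came to 0.639 to 2.09 CPM (counts scaled to a common, TMM-normalised library size). These limits cover counting error only. Replicate 3 of the Flcn/Tfeb controls stood apart from the other 2 in several of the genes and in its reads. Of its reads, 9.07% lay outside genes and 41.2% aligned to several places, against 17.8 and 19.9% and 49.4 and 47.3% in the other controls of that cross, and 18.8 to 19.4% and 46.4 to 48.5% in its DKO-labelled libraries. It held 2992169 counts on genes, the other 2 controls 1832651 and 1889295. The part of these read features in the gene levels was not tested. For the 7 genes and the named pathway genes tested there, the estimates of that cross are given with and without this library. Each cell type list fixed for the kidney had counts in every library, and Cdh16 had 195.5 to 365.3 CPM over all libraries.

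All 7 genes were detected in all 35 libraries, at low depth. The counts of a single library ran from 13 to 76 for Flcn (median 36), 62 to 215 for Fnip1 (median 134), 13 to 96 for Fnip2 (median 44), 6 to 93 for Tfeb (median 34), 27 to 115 for Tfe3 (median 67), 24 to 153 for Mitf (median 75) and 5 to 45 for Tfec (median 16). Reads come from the 3′ end of each transcript. In GENCODE M21 (GRCm38) Flcn (ENSMUSG00000032633) lies at chr11:59791408-59810016 on the minus strand, Fnip1 (ENSMUSG00000035992) at chr11:54438199-54518235 on the plus strand and Fnip2 (ENSMUSG00000061175) at chr3:79455974-79567796 on the minus strand. Tfeb (ENSMUSG00000023990) lies at chr17:47737030-47792419 on the plus strand, Tfe3 (ENSMUSG00000000134) at chrX:7762560-7775202 on the plus strand, Mitf (ENSMUSG00000035158) at chr6:97807052-98021349 on the plus strand and Tfec (ENSMUSG00000029553) at chr6:16833373-16898441 on the minus strand. Other annotated genes overlap 3 of the 7 (Fnip1, Fnip2 and Mitf), in each case without overlap of exons. The protein-coding transcripts of Tfeb have 10 annotated 3′ ends and those of Tfe3 5, and the counts add up all ends of a gene.

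MiT/TFE proteins bind the E-box CACGTG, best with the flanks TCACGTGA, and the related TCATGTG. The RefSeq promoter windows of the 7 genes (GRCm38.p6, 250 bases before to 50 after a start site, 12 windows) were searched for these 3 motifs on both strands. CACGTG includes every TCACGTGA match. CACGTG was in 1 of the 12 windows, that of Fnip1, and in 7.15% of all 32817 windows of 300 bases. TCACGTGA was in 0 of 12 (0.975% of all) and TCATGTG in 0 of 12 (3.78% of all). A match is a run of letters, not a site shown to be bound, and no match covers only these windows. Below are the window of Fnip1 (chr11:54437929-54438228, plus strand), as the only one with a match, and that of Fnip2 (chr3:79567630-79567929, minus strand), as the gene with the highest estimated rise in the crosses. Each is written 5′ to 3′ with CACGTG in capitals. In Fnip1 the motif starts 75 bases before the start site. GC content was 70.7% in the window of Fnip1 and 78% in that of Fnip2, the highest of the 12.

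Fnip1: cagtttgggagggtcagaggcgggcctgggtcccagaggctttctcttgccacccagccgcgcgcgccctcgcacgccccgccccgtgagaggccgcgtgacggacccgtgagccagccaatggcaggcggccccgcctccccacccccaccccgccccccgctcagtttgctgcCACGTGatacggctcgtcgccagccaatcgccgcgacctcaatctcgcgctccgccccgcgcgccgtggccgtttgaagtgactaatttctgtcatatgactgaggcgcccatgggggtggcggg

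Fnip2: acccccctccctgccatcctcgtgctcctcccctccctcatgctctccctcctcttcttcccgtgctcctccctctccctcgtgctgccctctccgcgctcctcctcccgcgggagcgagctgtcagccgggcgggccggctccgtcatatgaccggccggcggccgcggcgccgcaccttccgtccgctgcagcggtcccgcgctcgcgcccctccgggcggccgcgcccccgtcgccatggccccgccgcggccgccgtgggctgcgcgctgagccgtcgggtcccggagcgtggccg

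The first question was whether the genes targeted for deletion had fewer reads in the libraries that carry the label of their knockout. None of the 3 did beyond the spread between libraries. Flcn had 15.1 ± 3.25 CPM (SD, n = 5) in KO-labelled libraries and 13.9 ± 2.26 (n = 5) in controls. KO-labelled replicates 1 to 5 had 16.4, 10.3, 13.6, 18.8 and 16.4 CPM, and the controls 11.9, 16.4, 12.2, 16.3 and 12.6. The values of both groups intermingled. The log2 fold change was 0.09 (95% interval -0.34 to 0.52), with an adjusted p = 0.93 from edgeR's quasi-likelihood test. In the Flcn/Tfeb cross Flcn had 12.7, 16.8, 16.4 and 11 CPM in the 4 DKO-labelled libraries and 11.7, 10.5 and 16.1 in the 3 controls (log2 fold change 0.11, interval -0.52 to 0.74, adjusted p = 0.93 from edgeR, and 0.34 without control replicate 3). In set B of the Flcn/Tfe3 cross Flcn had 6.34 to 16.2 CPM in DKO-labelled libraries (median 12.7) against 10.7, 14.8 and 8.0 in controls. In set C it had 11, 15.8, 12.5 and 14.3 CPM against 11.8, 9.04, 10.2, 13.3 and 11.8. Over both sets the log2 fold change of Flcn was 0.20 (interval -0.17 to 0.57, adjusted p = 0.87 from edgeR). No KO- or DKO-labelled group was lower in Flcn reads than its controls. The excised exons are not given in the sources used here, and a read from a 3′ end outside the deleted part checks nothing, so these counts check neither the deletion nor the labels. In whole kidney, fewer cells of a type and less RNA per cell cannot be told apart either.

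Tfeb, the factor deleted by design together with Flcn in the Flcn/Tfeb cross, had 7.47 ± 0.680 CPM (SD, n = 4) in DKO-labelled libraries and 12 ± 6.67 (n = 3) in controls. The DKO-labelled libraries had 7.94, 6.48, 7.61 and 7.87 CPM, and the controls 9.34, 7.0 and 19.5. The DKO values lay close together and within or just under the range of the 2 lower controls, while control replicate 3 stood far above all others. The log2 fold change was -0.73 (standard error 0.38, interval -1.56 to 0.10, adjusted p = 0.80 from edgeR), and without control replicate 3 it was -0.12 (adjusted p = 0.98). That library held 68 Tfeb counts against 16 and 12 in the other controls. It also had the highest Fnip2, Flcn and Tfec and the lowest Fnip1 and Tfe3 of its group, and the highest Cdh16, 350.4 CPM against 195.5 and 282.5. Cdh16 was 211.4 ± 6.63 CPM in the DKO-labelled libraries of that cross. Per 100 Cdh16 counts, a ratio chosen after the values were seen, Tfeb had 3.53 ± 0.260 counts in DKO-labelled libraries and 4.16 ± 1.24 in controls, and these ranges overlapped. The part of Cdh16-expressing cells in the Tfeb difference was not tested.

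In the Flcn cross Tfeb had 7.71, 13.8, 9.20, 11.9 and 14.4 CPM in KO-labelled libraries and 15.7, 14.5, 10.6, 12.9 and 10.9 in controls. The groups overlapped, with 2 of 5 KO-labelled libraries below all controls (log2 fold change -0.16, interval -0.62 to 0.31, adjusted p = 0.87 from edgeR). In the Flcn/Tfe3 cross Tfeb differed between the sets. In set B it had 9.66 to 22.0 CPM in DKO-labelled libraries (median 13.8) and 16.7, 13.3 and 24.8 in controls. In set C it had 13.2, 10.4, 10.3 and 13.1 CPM in DKO-labelled libraries and 11.4, 4.17, 10.6, 11 and 3.53 in controls. Replicates 5 and 8 of the controls, both in set C, were the lowest of all 35 libraries, at 6 and 9 counts. Over both sets the log2 fold change was 0.10 (interval -0.36 to 0.56, adjusted p = 0.96 from edgeR), with opposite signs in set B (-0.26) and set C (0.48). The reads of set C differed between the groups, with 7.92 to 10.5% outside genes and 33.7 to 36.1% aligned to several places in DKO-labelled libraries, and 8.78 to 18.4% and 35 to 42.5% in controls. Control replicate 5 had the most reads outside genes of set C and the fewest counts on genes, 1719367, and control replicate 8 had 12.8% outside genes. The 6 red blood cell markers summed to 1409 to 1850 CPM in the DKO-labelled libraries of set C and 2083 to 7580 in its controls, with no overlap. The part of the read features or of red blood cells in the Tfeb values of set C was not tested.

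Tfe3, the X-linked factor deleted by design with Flcn in the other double cross, was not lower in DKO-labelled libraries than in their controls beyond the spread. In set B it had 12.4 to 24.6 CPM in DKO-labelled libraries (median 20.4) and 22.9, 15.3 and 24.8 in controls. In set C it had 18.9, 16.1, 17.6 and 15.8 CPM against 17.5, 18.8, 17.6, 19.0 and 18.0. The log2 fold change was -0.09 (interval -0.38 to 0.20, adjusted p = 0.94 from edgeR), or -0.22 with the Xist level of each library as a covariate (adjusted p = 0.95 from edgeR). The interval puts the Tfe3 reads of DKO-labelled libraries at 0.771 to 1.15 times those of controls. Tfe3 reads differed more between sets than between genotypes. They ran from 22.8 to 43.2 CPM in the 17 libraries of set A (median 32.4), from 12.4 to 24.8 in the 9 of set B (median 20.9) and from 15.8 to 19.0 in the 9 of set C (median 17.6), controls included. Set and cross cannot be told apart here, since no other cross is in sets B and C. In the Flcn cross Tfe3 had 30.9 ± 3.12 CPM in KO-labelled libraries and 32.0 ± 5.19 in controls (log2 fold change -0.04, adjusted p = 0.96 from edgeR). In the Flcn/Tfeb cross it had 33.1 ± 8.22 CPM in DKO-labelled libraries and 36.5 ± 6.80 in controls, a log2 fold change of -0.14 (adjusted p = 0.88 from edgeR), or -0.28 without control replicate 3. The interval limits a rise of Tfe3 reads there to 1.31-fold.

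**Figure D1:**
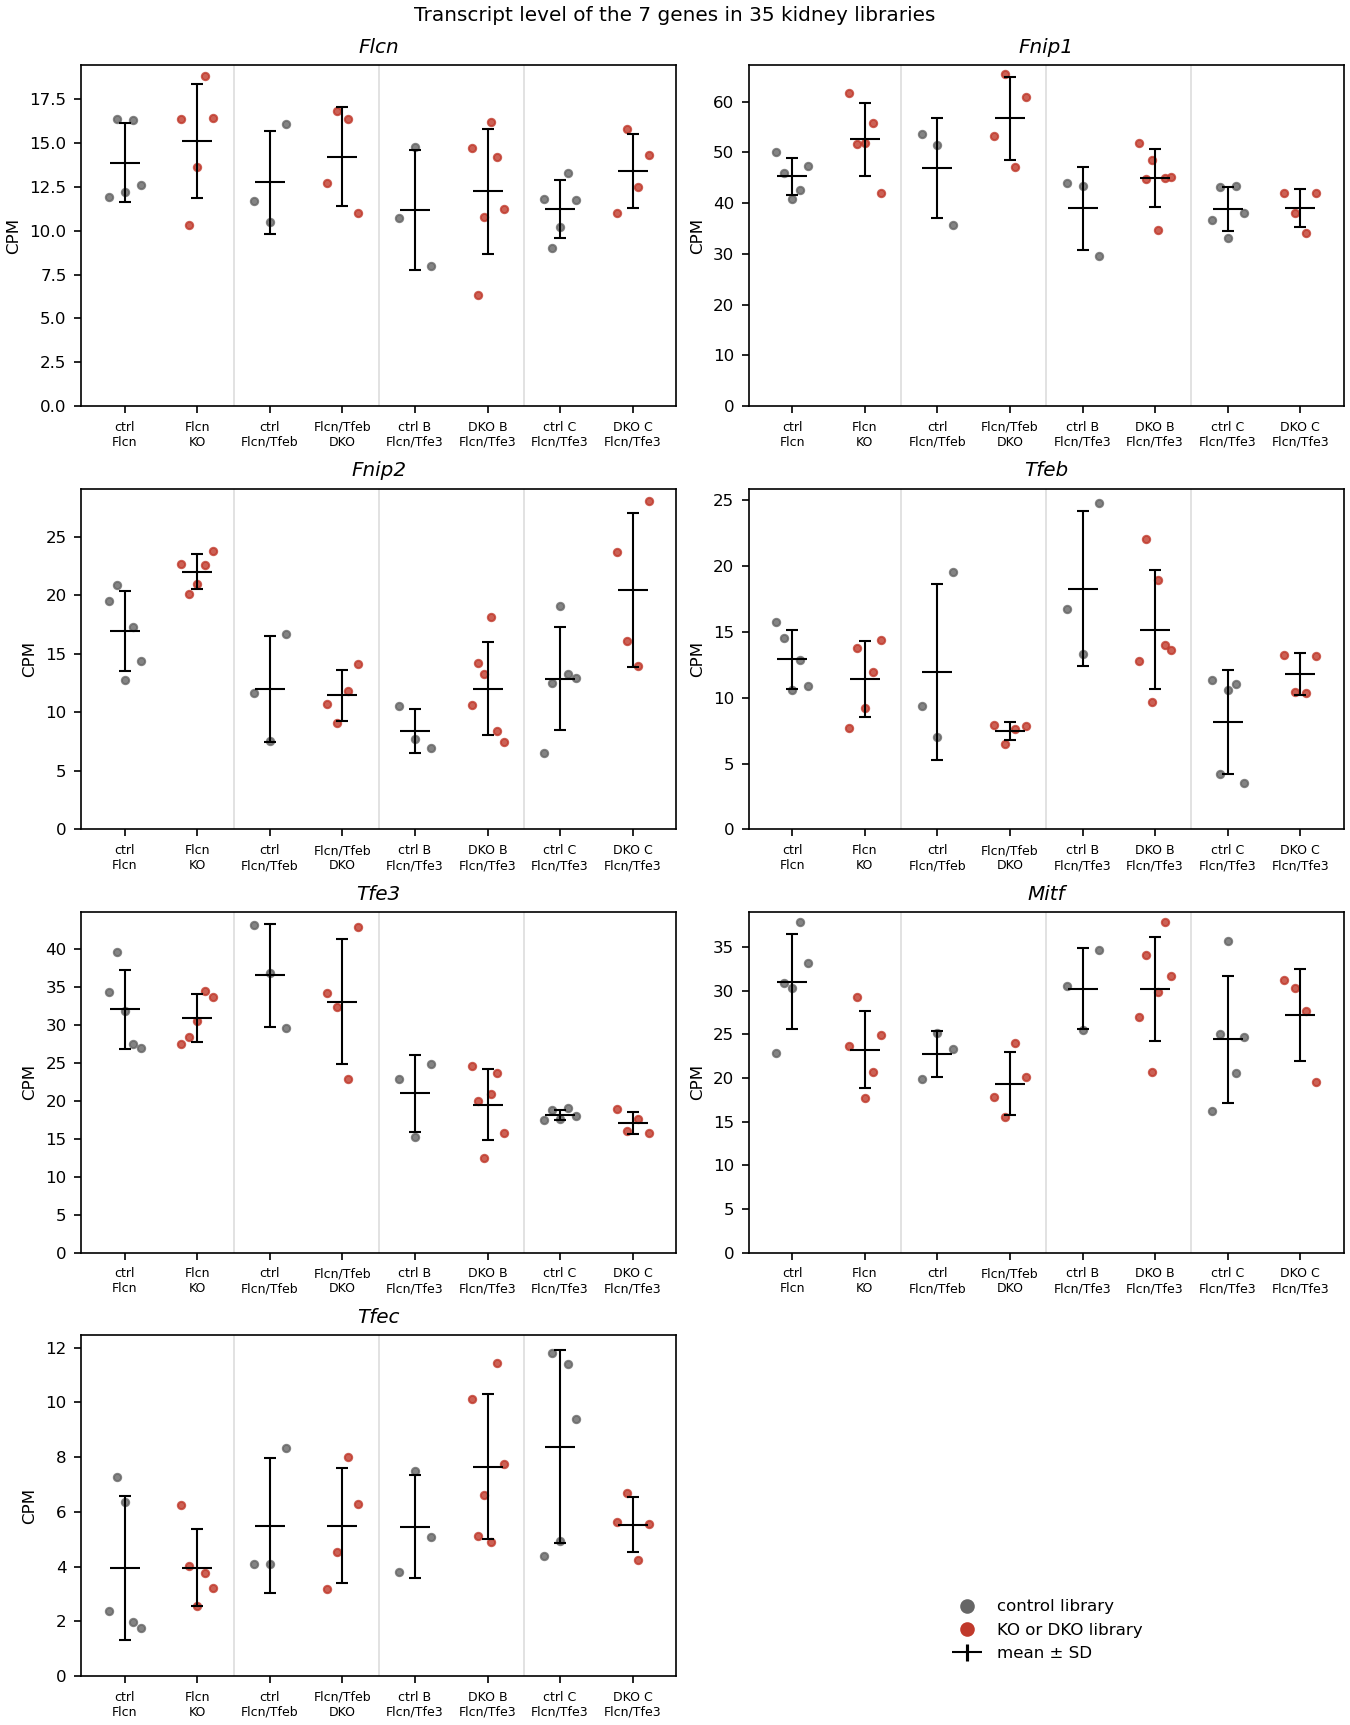
Level of each gene in CPM (counts scaled by TMM library sizes, linear axes from 0) in each library, by group, with the mean and SD of the group. Libraries labelled KO or DKO overlap their controls in every panel, control replicate 3 of the Flcn/Tfeb cross is high for Tfeb at 19.5 CPM, and Tfe3 is lower in the Flcn/Tfe3 cross, controls included.

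The balance of Tfeb and Tfe3 was also taken within each library, as the share of Tfeb in the sum of Tfeb and Tfe3 counts, which does not depend on library size but compares 3′ reads of 2 genes, not proteins. It was 26.7 ± 4.53% (SD, n = 5) in KO-labelled libraries and 28.8 ± 2.94% (n = 5) in controls, a difference of -2.13 percentage points (two-sided exact permutation test, p = 0.39, smallest possible p 0.0079). In the Flcn/Tfeb cross it was 19.0 ± 4.23% (n = 4) in DKO-labelled libraries and 24.5 ± 13.2% (n = 3) in controls, a difference of -5.51 points (two-sided exact permutation test, p = 0.60, smallest possible p 0.029). The shares were 18.9, 16.7, 25 and 15.5% in the DKO-labelled libraries, and 17.8, 16 and 39.8% in the controls. Without control replicate 3 the difference was 2.12 points, and from the counts summed over each group it was -9.90 points. For the Flcn/Tfe3 cross the share was 42.5 ± 5.69% (n = 10) and 35.9 ± 12.3% (n = 8), a difference within sets of 4.60 points (two-sided exact permutation test within sets, p = 0.28). It was 43.6 ± 6.83% against 46.3 ± 3.93% in set B and 40.8 ± 3.59% against 29.6 ± 11.3% in set C. In both sets the ranges of DKO and control libraries overlapped.

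**Figure D2:**
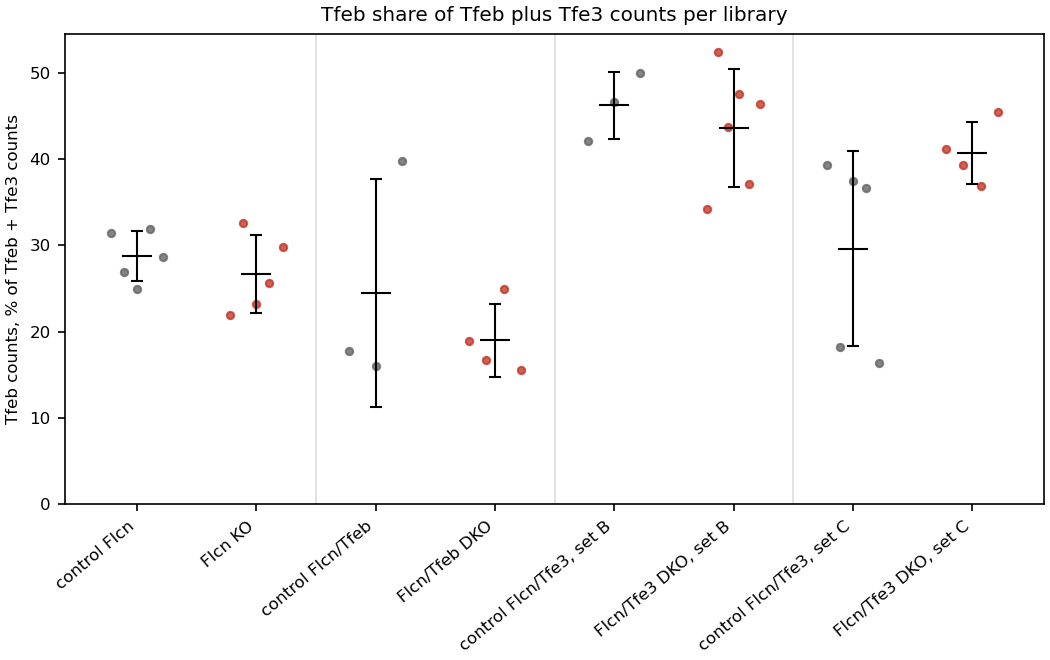
Tfeb counts as a percentage of Tfeb plus Tfe3 counts in each library (points), by group, with the mean and SD. The 4 DKO-labelled libraries of the Flcn/Tfeb cross lie between 15.5 and 25%, beside controls of that cross at 16, 17.8 and 39.8%, and 2 controls of set C lie apart from the other 3.

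The remaining question was whether Mitf, Tfec, Fnip1 or Fnip2 rose in the libraries labelled as knockouts of Flcn, Tfeb or Tfe3. None of them passed the test in any cross. Over the 7 genes and 3 crosses, edgeR called 0 genes in the Flcn cross, where it called 0.52% of all 11932 genes (0.453% as higher, 0.067% as lower), 0 in the Flcn/Tfeb cross (0% of 12469) and 0 in the Flcn/Tfe3 cross (0.385% of 12456, with 0.345% higher and 0.0401% lower). DESeq2 called 0 of them in each cross. At an unadjusted p under 0.05 edgeR had 2 of the 6 tested in the Flcn cross (Fnip2 and Mitf; 9.07% of all genes), 0 of 7 in the Flcn/Tfeb cross (5.07%) and 1 of 7 in the Flcn/Tfe3 cross (Fnip2; 7.15%). The median log2 fold change of the genes tested was 0.02, -0.11 and 0.10 in the same order of crosses, against -0.01, -0.02 and 0.01 over all genes. Without control replicate 3 the median of the Flcn/Tfeb cross was 0.09, on the other side of 0. The groups overlapped for all 21 pairs of gene and cross. The share of all genes whose groups overlap was not computed, so this describes the values only.

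Fnip2, 1 of the 2 proteins that hold folliculin at the lysosome, had the highest estimates in the Flcn and Flcn/Tfe3 crosses. In the Flcn cross it had 22.7, 20.1, 21.0, 22.6 and 23.8 CPM in KO-labelled libraries and 19.5, 20.9, 12.7, 17.3 and 14.4 in controls. The KO-labelled libraries lay close together at the top, and 4 of 5 were above all controls. The log2 fold change was 0.37 (standard error 0.17, interval 0.01 to 0.73, unadjusted p = 0.042, adjusted p = 0.53 from edgeR), which does not pass the test. In set B of the Flcn/Tfe3 cross Fnip2 had 7.50 to 18.1 CPM in DKO-labelled libraries (median 11.9) and 10.5, 7.75 and 6.94 in controls. In set C it had 23.7, 16.1, 14 and 28 CPM in DKO-labelled libraries and 6.56, 12.5, 19.0, 13.3 and 12.9 in controls. In each set the DKO libraries reached higher than the controls, with some overlap. Control replicate 6, at 19.0 CPM the highest control of set C, was also the control whose reads were most like those of its DKO-labelled libraries (8.78% outside genes). The summed intercalated cell markers, given below, were higher with no overlap in the KO- or DKO-labelled libraries of every cross. The part of the read features, of red blood cells or of intercalated cells in the Fnip2 values was not tested. The log2 fold change over both sets was 0.60 (standard error 0.21, interval 0.16 to 1.04, unadjusted p = 0.0096, adjusted p = 0.43 from edgeR) (set B 0.52, set C 0.63). In the Flcn/Tfeb cross Fnip2 had 10.7, 9.07, 11.8 and 14.2 CPM in DKO-labelled libraries and 11.7, 7.59 and 16.7 in controls, 4 values inside the range of the controls. Its log2 fold change was -0.11 (interval -0.81 to 0.60, adjusted p = 0.94 from edgeR), or 0.26 without control replicate 3. The change in the Flcn/Tfeb cross less that in the Flcn cross was -0.49 (interval -1.16 to 0.18, interaction in edgeR, adjusted p = 0.86), or -0.11 without control replicate 3 (adjusted p = 0.97), so the crosses were not shown to differ.

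Fnip1, the other partner of folliculin, is the best counted of the 7. It had 52.6 ± 7.21 CPM (SD, n = 5) in KO-labelled libraries and 45.3 ± 3.65 (n = 5) in controls (log2 fold change 0.21, interval -0.06 to 0.47, adjusted p = 0.65 from edgeR). In the Flcn/Tfeb cross it had 56.7 ± 8.09 CPM (n = 4) in DKO-labelled libraries and 46.9 ± 9.82 (n = 3) in controls (log2 fold change 0.27, interval -0.18 to 0.72, adjusted p = 0.80 from edgeR, and 0.09 without control replicate 3). Over both sets of the Flcn/Tfe3 cross the log2 fold change was 0.12 (interval -0.11 to 0.34, adjusted p = 0.87 from edgeR) (set B 0.21, set C -0.01). The interval there limits a rise of Fnip1 reads to 1.27-fold.

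Mitf, best known as the factor of melanocytes, mast cells and osteoclasts, had 23.6, 29.3, 17.7, 20.7 and 24.9 CPM in KO-labelled libraries and 22.9, 30.9, 30.3, 37.9 and 33.2 in controls. The KO-labelled libraries were mostly the lower ones, with 2 of 5 below all controls. The 2 highest controls, replicates 4 and 5, had 11 and 9.06% of their reads outside genes, against 16.5 to 18.0% in the other 3 controls and 12.9 to 18.1% in KO-labelled libraries. The 2 highest KO-labelled libraries, replicates 2 and 5, had the lowest such shares of their group (13.3 and 12.9%), and the part of this in the Mitf values was not tested. The log2 fold change was -0.42 (standard error 0.17, interval -0.77 to -0.06, unadjusted p = 0.024, adjusted p = 0.45 from edgeR), which does not pass the test. The interval puts Mitf reads at 0.585 to 0.959 times the controls. In the Flcn/Tfeb cross Mitf had 17.9, 15.5, 24.0 and 20.1 CPM in DKO-labelled libraries and 19.8, 25.1 and 23.3 in controls (log2 fold change -0.23, interval -0.74 to 0.27, adjusted p = 0.81 from edgeR, and -0.20 without control replicate 3). In the Flcn/Tfe3 cross it had 30.2 ± 5.94 CPM in DKO-labelled libraries and 30.2 ± 4.62 in controls of set B, and 27.2 ± 5.30 and 24.4 ± 7.22 in set C (log2 fold change 0.08, interval -0.22 to 0.39, adjusted p = 0.95 from edgeR). The highest rise that the intervals allow was 1.21-fold in the Flcn/Tfeb cross and 1.31-fold in the Flcn/Tfe3 cross. The change in the Flcn/Tfe3 cross less that in the Flcn cross was 0.50 (interval 0.02 to 0.99, unadjusted p = 0.042, adjusted p = 0.66 from edgeR), where 7.4% of all genes were at an unadjusted p under 0.05. Markers of melanocytes were near 0, with a sum of 0.761 to 5.97 CPM over 6 genes, Tyr at 0 and Tyrp1 at 3 counts or fewer in every library. The 6 mast cell markers summed to 30.8 to 41.2 CPM in KO-labelled libraries and 32.9 to 45.5 in their controls. The 12 myeloid markers summed to 222.4 to 254.0 and 175.6 to 283.4 CPM there. The 6 podocyte markers, a list not tied to Mitf in the plan, were lower with no overlap in the same libraries. They summed to 373.8 to 461.5 CPM in KO-labelled libraries and 476.8 to 545.2 in controls (339.9 to 408.7 against 416.8 to 518.5 in the Flcn/Tfeb cross). In the Flcn/Tfe3 cross the groups overlapped. The sums were 338.9 to 496.5 CPM against 440.8 to 500.7 in set B and 489.7 to 557.5 against 392.1 to 598.0 in set C. The part of these cells in the Mitf values was not tested.

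Tfec, a factor known from macrophages and osteoclasts, was the least counted. In the Flcn cross it fell below the filter on low counts, with 2.58 to 6.27 CPM in KO-labelled libraries (6 to 14 counts) and 1.76 to 7.27 in controls (5 to 16 counts). The mean log2(CPM + 0.5) differed by 0.16 (two-sided exact permutation test, p = 0.73, smallest possible p 0.0079). Tfec in the Flcn/Tfeb cross had 5.5 ± 2.10 CPM (SD, n = 4) in DKO-labelled libraries and 5.5 ± 2.45 (n = 3) in controls. Its interval of the fold ran from 0.481 to 1.91, so a change within these limits was not excluded. Its log2 fold change there was -0.06, or 0.43 without control replicate 3, with an interval of the fold from 0.606 to 3.01. Over sets B and C its log2 fold change was -0.04 (interval -0.60 to 0.51, adjusted p = 0.99 from edgeR) (set B 0.49, set C -0.59). The 12 myeloid markers summed to 268.1 to 330.5 CPM in DKO-labelled libraries and 243.3 to 268.9 in controls of set B, and to 130.1 to 185.9 and 155.2 to 215.5 in set C. For Tfec and for the marker sums the ranges of DKO and control libraries overlapped in both sets, Tfec was called in neither (adjusted p = 0.77 and 0.35 from edgeR), and the part of myeloid cells in the Tfec values was not tested.

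**Figure D3:**
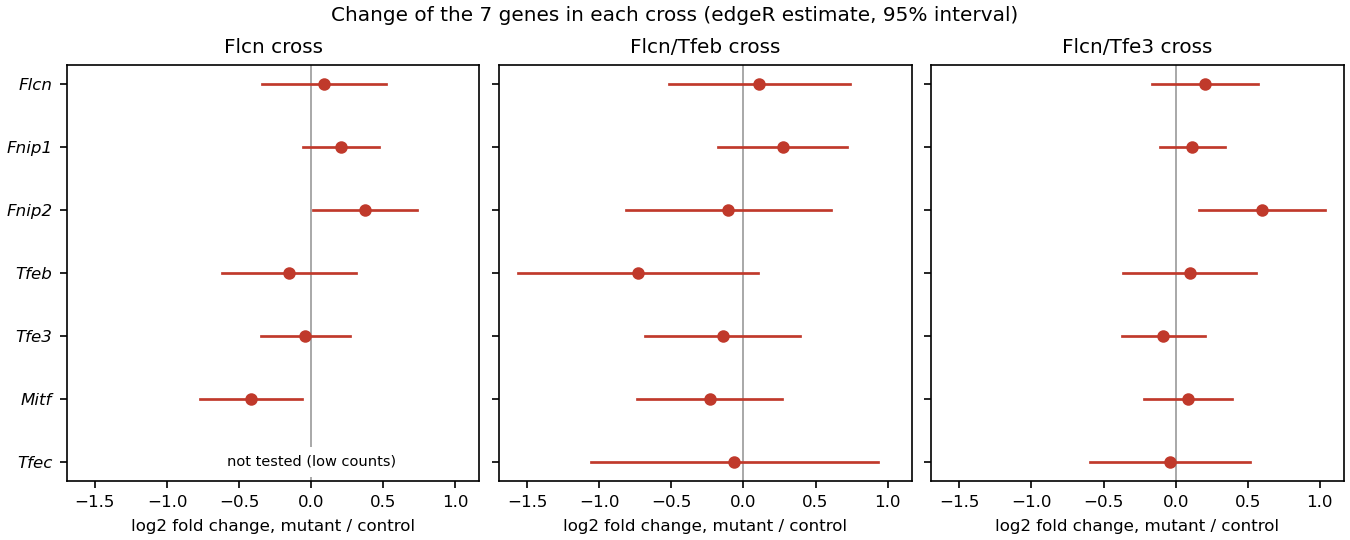
Log2 fold change of each gene in KO-labelled libraries or DKO against the controls of the same cross (points), with 95% intervals from edgeR that are not adjusted for the number of genes. Only Fnip2 in the Flcn and Flcn/Tfe3 crosses (0.37 and 0.60) and Mitf in the Flcn cross (-0.42) have intervals that leave out 0, and none passes the test after adjustment.

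The differences between crosses, each taken against its own controls, were tested as interactions. Of the 7 genes, 0 were called in the Flcn/Tfeb cross less the Flcn cross (2 of 13049 genes called, 0.0153%, and 5.95% at an unadjusted p under 0.05) and 0 in the Flcn/Tfe3 cross less the Flcn cross (0% of 13209). At an unadjusted p under 0.05 there were 0 and 1 of the 7, the latter Mitf, and DESeq2 called 0 in both. The Tfeb change in the Flcn/Tfeb cross less that in the Flcn cross was -0.59 (interval -1.43 to 0.25, adjusted p = 0.87 from edgeR), and 0.04 without control replicate 3. Both contrasts share the 5 controls and 5 KO-labelled libraries of the Flcn cross.

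The order of the mean levels over the 8 groups (each cross, genotype and set) is given as a description. Neighbours in an order by mean are alike by construction, and each group holds few libraries, so their overlap is no test. The ranges of neighbouring groups overlapped in 48 of 49 pairs. The exception was Tfe3, between controls of set B (21.0 CPM) and KO-labelled libraries (30.9 CPM). Fnip2 had the widest order, from 8.40 CPM in controls of set B to 22.0 in KO-labelled libraries, 2.62 times as high. Tfeb went from 7.47 CPM in DKO-labelled libraries of the Flcn/Tfeb cross to 18.3 in controls of set B (2.45 times), Tfe3 from 17.1 in DKO libraries of set C to 36.5 in controls of the Flcn/Tfeb cross (2.14 times) and Tfec from 3.95 in controls of the Flcn cross to 8.39 in controls of set C (2.12 times). Mitf went from 19.4 CPM in DKO-labelled libraries of the Flcn/Tfeb cross to 31.0 in controls of the Flcn cross (1.60 times), Fnip1 from 38.9 in controls of set C to 56.7 in DKO-labelled libraries of the Flcn/Tfeb cross (1.46 times) and Flcn from 11.2 in controls of set B to 15.1 in KO-labelled libraries (1.35 times).

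The other genes of the pathway, from lists compiled by hand, were tested in the same fits. The lists were compiled with earlier results of these data known. Their counts of calls are therefore not independent of these data, and the shares of all genes beside them are given as a description. Of 22 textbook MiT/TFE target genes, 21 were tested in each cross, and edgeR called 4 as higher in the Flcn cross (0.453% of all genes), 0 in the Flcn/Tfeb cross, where it called 0% of all genes, and 4 as higher in the Flcn/Tfe3 cross (0.345%). Their median log2 fold change was 0.21, -0.10 and 0.11, against -0.01, -0.02 and 0.01 over all genes. List medians of the Flcn/Tfeb cross, here and below, include control replicate 3. Rragd, the RagD GTPase that folliculin acts on, rose from 25.0 ± 7.88 CPM (SD, n = 5) in controls to 55.2 ± 1.40 (n = 5) in KO-labelled libraries (log2 fold change 1.13, adjusted p = 0.0032 from edgeR). It rose by 1.34 in the Flcn/Tfe3 cross (adjusted p = 2.9e-08 from edgeR), and in the Flcn/Tfeb cross its log2 fold change was 0.45 (adjusted p = 0.80), or 0.71 without control replicate 3 (adjusted p = 0.93). Gpnmb, a glycoprotein of lysosomes and melanosomes, had 2 counts or fewer in each control of the Flcn cross and 23 to 36 counts in KO-labelled libraries, at least 7.43-fold higher against 3 counts in the shallowest control (adjusted p = 2.8e-05 from edgeR). In the other crosses it was below the filter, with 0 to 8 counts in DKO-labelled libraries and 0 to 2 in controls of the Flcn/Tfeb cross. In set B of the Flcn/Tfe3 cross it had 0 to 15 counts in DKO-labelled libraries and 23, 3 and 4 in control replicates 1, 2 and 3. There 0 of 6 DKO-labelled libraries lay above all controls in CPM. In set C it had 2 to 11 counts against 0 to 2, with 3 of 4 DKO-labelled libraries above all controls in CPM. Ctsd, the lysosomal protease cathepsin D, rose by 0.82 in the Flcn cross and 0.41 in the Flcn/Tfe3 cross (adjusted p = 0.0015 and 0.029 from edgeR). Atp6v0d2, a proton pump subunit of intercalated cells, rose by 1.02 and 1.13 (adjusted p = 6.4e-04 and 1.9e-04 from edgeR). Atp6v0d2 in the Flcn/Tfeb cross had 19.8 to 23.6 CPM in DKO-labelled libraries and 8.76, 12.3 and 25.0 in controls. The DKO-labelled libraries all lay above the first 2 controls and below control replicate 3. Its log2 fold change there was 0.43 (adjusted p = 0.80 from edgeR), or 1.04 without that library (adjusted p = 0.93), and that of Ctsd was -0.01 (adjusted p = 0.99), or 0.08 without it. Ppargc1a, the coactivator of mitochondrial genes, rose by 0.63 in the Flcn/Tfe3 cross (adjusted p = 0.017 from edgeR). In the Flcn cross its log2 fold change was 0.35 (adjusted p = 0.26), with all 5 KO-labelled libraries above all controls, and in the Flcn/Tfeb cross -0.10 (adjusted p = 0.89), or 0.12 without control replicate 3. In the Flcn/Tfe3 cross the call of Ctsd was lost on leaving out any of 10 of the 18 libraries and that of Ppargc1a on leaving out any of 3, with highest adjusted p of 0.11 and 0.054 from edgeR. Both calls were also lost with the Xist covariate, at 0.37 and 0.59 (adjusted p = 0.16 and 0.10 from edgeR). Without a set term they were lost at 0.53 and 0.57 (adjusted p = 0.21 and 0.28 from edgeR). Xist had 80.1 ± 136 CPM in DKO-labelled libraries of that cross and 385 ± 512 in controls. Set B alone gave 0.39 for Ctsd, 0.36 for Ppargc1a and 0.81 for Atp6v0d2 (adjusted p = 0.75, 0.75 and 0.10 from edgeR), none called, and set C alone 0.39, 0.85 and 1.42 (adjusted p = 0.077, 0.0078 and 0.0037 from edgeR). DESeq2 kept the calls of Ctsd and Ppargc1a over both sets (adjusted p = 8.3e-05 and 0.0015 from DESeq2). For Ctsd and Atp6v0d2 all DKO-labelled libraries lay above all controls of their set in both sets. For Ppargc1a this held in set C only. The summed level of the 8 intercalated cell markers, Atp6v0d2 among them, was 442.1 to 583.2 CPM in KO-labelled libraries and 187.6 to 260.1 in their controls. It was 302.4 to 321.6 CPM against 226.2 to 263.3 in the Flcn/Tfeb cross, 325.7 to 489.6 against 195.6 to 240.9 in set B and 321.4 to 434.2 against 216.9 to 296.7 in set C. In each of these the DKO-labelled libraries all lay above their controls. The genes of the list did not all follow the sum. In the Flcn cross the log2 fold changes were 2.06 for Aqp6, 1.31 for Atp6v1g3, 1.02 for Atp6v0d2, 0.83 for Foxi1 and 0.68 for Slc4a1. They were -0.02 for Atp6v1b1 and -0.22 for Slc26a4. In the Flcn/Tfeb cross, control replicate 3 included, Slc26a4 was at -0.25, Foxi1 at -1.01 and the others at 0.07 to 0.64. In the Flcn/Tfe3 cross they ran from 0.06 to 1.81. The part of these cells in the target gene values was not tested.

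Of 10 Rag GTPase and Ragulator genes, 9 were tested and Rragd was the one called, in the Flcn and Flcn/Tfe3 crosses. Of the mTORC1 and Rheb list 9 of 9 genes were tested, of the GATOR and amino acid sensor list 14 of 16 (14 found in the table), of the AMPK subunits 6 of 7 and of the other E-box factors of the same structural class 13 of 15, or 15 in the Flcn/Tfe3 cross. None of these was called in any cross by edgeR. Their list medians lay between -0.12 and 0.15 on the log2 scale.

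**Figure D4:**
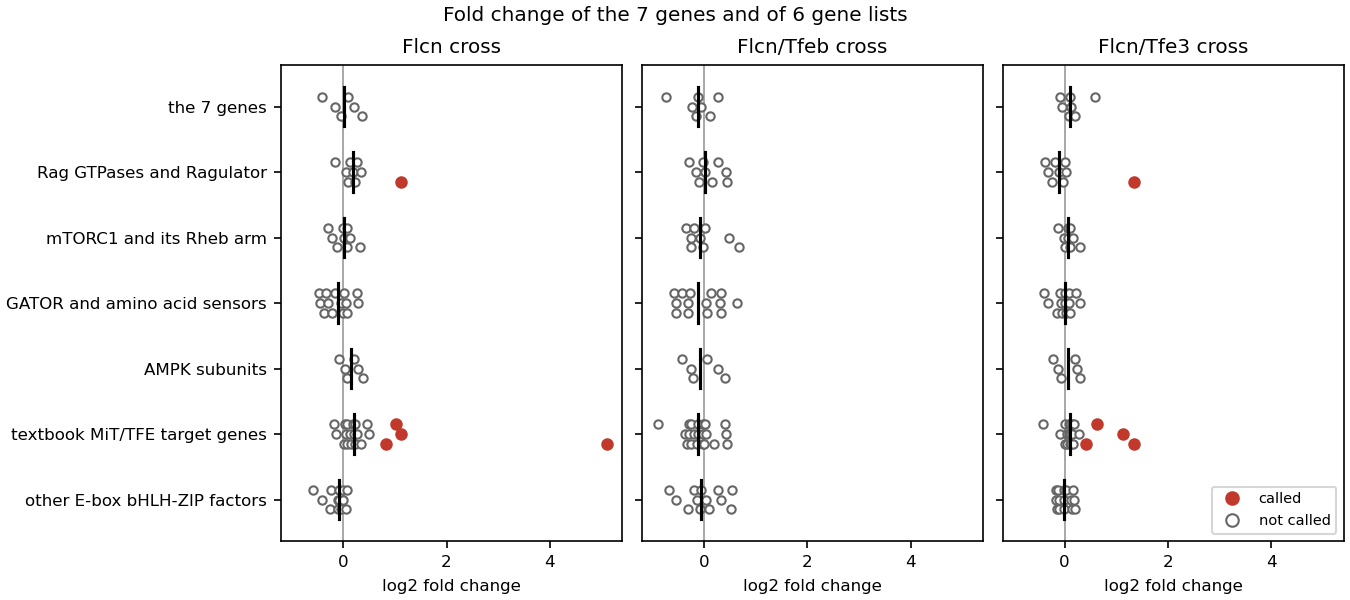
Log2 fold change of the 7 genes and of the tested genes of 6 lists in each cross (points, 1 per gene), with the list median (line). Filled points passed the test at an adjusted p under 0.05. They lie in the Rag GTPase and target gene rows of the Flcn and Flcn/Tfe3 crosses, and the row of the 7 genes has none.

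Likeness was measured as the Pearson r of log2 CPM over the 35 libraries, each taken less the mean of the controls of its cross and set, among 12272 genes. The points share library preparation, depth and, within a cross, controls, so r is given as a description. Fnip2 was most like Ppargc1a (r = 0.72), Gaa, the lysosomal acid alpha-glucosidase (0.70), and Sorl1, a sorting receptor (0.67). Tfeb was most like Lnx2 (0.85), Pdxk, the kinase that makes pyridoxal phosphate (0.82), and Usp22, a deubiquitinase (0.81). Mitf was most like Slc38a10, Daxx and Psmd3 (0.74, 0.71 and 0.69), and Fnip1 like Trpm7, Spink8 and Spata1 (0.69, 0.68 and 0.68). Flcn was most like Prr3, Fbxl14 and Xxylt1 (0.69, 0.62 and 0.61), and Tfe3 like Slit3, Mkl2 and A430033K04Rik (0.61, 0.58 and 0.58). Plpbp and Abhd16a were among the genes most like Tfec (r = 0.67 for both). Among the 7 genes themselves, r between Tfeb and Tfe3 was 0.19, between Tfeb and Mitf 0.30, between Tfeb and Fnip2 0.33 and between Tfeb and Fnip1 -0.57. Flcn had r of 0.03 with Fnip1 and 0.17 with Fnip2. Tfeb and Cdh16 had r of 0.16.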

How the data were processed

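RNA of mouse kidneys was sequenced as QuantSeq 3′ libraries. The authors trimmed the reads with bbduk (Trim Galore in the submitters' processing notes), aligned them to mm10 with STAR, used HTSeq-count for each gene, and deposited the counts as whole numbers without normalization. Whether the counting used strand is not given in the sources used here. The single-library files of set A and the tables of sets B and C were joined by Ensembl gene identifier, and rows that name no gene were left out of the totals. Of the reads of sets A and C, 7.92 to 19.9% lay outside genes and 33.7 to 49.4% aligned to several places. The table of set B holds no such rows, and its column of multiply mapped reads per gene, deposited as 0 or missing for each gene, was not used.

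Each cross was fitted in edgeR 4.0.16 (R 4.3.3; filterByExpr, TMM factors, two-sided quasi-likelihood F test), with the set as a term for the Flcn/Tfe3 cross and an interaction for differences between crosses. P-values were adjusted by Benjamini-Hochberg over all genes tested, and called at 0.05. CPM use TMM factors over all 35 libraries, and log2 CPM a prior count of 2. Tfec in the Flcn cross and the Tfeb shares were compared by exact permutation of libraries. The 63 pairs of libraries of 1 group and set differed by a chi-square per degree of freedom of 2.85 to 42.6, so none was merged. The scripts were tested on simulated data. Alternatives were DESeq2 1.42.0, RLE factors, library totals, other filters, a block for the replicate number, the Xist level as covariate, each set alone, no set term, a pseudocount of 1, the share of summed counts, and leaving out single libraries.

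The members and lists were chosen with earlier results of these data known. Genes named are the 7, Cdh16, the 3 most alike genes of each (with a mean of at least 10 counts) and every listed pathway gene called in a cross. A gene that this rule names for Tfec is not reported here. Xist, Tyr and Tyrp1 are named beside them as measures of sex and of melanocytes, and intercalated cell markers as members of their list.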

Additional observations from a re-analysis of the deposited data

How the results depend on the processing

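Under all alternatives, 0 of the 7 genes were called in any comparison (lowest adjusted p 0.19 from edgeR, for Fnip2 in set C alone), and of 765 fits of a single gene 717 kept the direction of the reported estimate. The sign turned to -0.036 for Flcn in the Flcn/Tfeb cross and to 0.042 for Tfec in the Flcn/Tfe3 cross with library totals. In the Flcn/Tfe3 cross it turned to -0.054 for Mitf with the Xist covariate, to -0.26 for Tfeb and 0.49 for Tfec in set B alone, and to -0.0081 for Fnip1 in set C alone. The Tfeb share differed by -2.66 points in set B alone and by 11.1 in set C alone. The cause was not tested. The count of all genes called in the Flcn cross, 62, was 113 with DESeq2 and 95 with no filter. The 48 of the Flcn/Tfe3 cross became 96 with DESeq2, 26 with the Xist covariate, 8 in set B, 569 in set C and 29 without a set term. The 2 genes called for the Flcn/Tfeb cross less the Flcn cross became 8, and the 0 for the Flcn/Tfe3 cross less the Flcn cross became 1, with DESeq2. With the replicate number as a block, which does not pair the libraries (same-numbered libraries correlated at -0.32 to 0.31), 0 genes were called in the Flcn/Tfe3 cross and Flcn there was at -0.011. Leaving out 1 library at a time, the counts were 37 to 58 in the Flcn cross (40, 37 and 39 without KO-labelled replicates 2, 3 and 4), 0 to 1 in the Flcn/Tfeb cross, 30 to 53 in the Flcn/Tfe3 cross (30 without DKO-labelled replicate 7) and 0 to 3 for the Flcn/Tfeb cross less the Flcn cross. So left out, log2 fold changes ran in the Flcn cross from -0.10 to 0.047 for Tfe3 and, for Tfec, from -0.035 to 0.41 in mean log2(CPM + 0.5). In the Flcn/Tfeb cross they ran from -0.0040 to 0.34 for Flcn, from -0.33 to 0.26 for Fnip2, from -0.98 to -0.12 for Tfeb (-0.12 without control replicate 3), from -0.29 to 0.0032 for Tfe3 and from -0.22 to 0.43 for Tfec, and the Tfeb share from -9.76 to 2.12 points, against -9.90 from summed counts. In the Flcn/Tfe3 cross they ran from -0.011 to 0.28 for Tfeb and from -0.20 to 0.070 for Tfec. For the Flcn/Tfeb cross less the Flcn cross they ran from -0.11 to 0.26 for Flcn, from -0.10 to 0.19 for Fnip1, from -0.84 to 0.041 for Tfeb, from -0.25 to 0.060 for Tfe3 and from -0.49 to 0.37 for Tfec. For the Flcn/Tfe3 cross less the Flcn cross they ran from -0.0085 to 0.22 for Flcn, from -0.13 to 0.020 for Tfe3 and from -0.47 to 0.10 for Tfec. Of the pathway genes named, Ctsd in the Flcn/Tfeb cross turned from -0.01 to 0.0033 with RLE factors, 0.0019 with DESeq2, 0.0036 with the Xist covariate and 0.054 with the replicate block. It ran from -0.11 to 0.080, and Ppargc1a there from -0.20 to 0.12, when 1 library was left out. In the Flcn/Tfe3 cross the calls of Ctsd (controls 1, 2, 4 and 7 and DKO-labelled 2, 4, 5, 7, 8 and 10) and Ppargc1a (control 7 and DKO-labelled 7 and 8) were lost without the single libraries in brackets. Both calls were also lost with the Xist covariate, at log2 fold changes of 0.37 and 0.59 against 0.41 and 0.63 (adjusted p = 0.16 and 0.10 from edgeR), and without a set term, at 0.53 and 0.57 (adjusted p = 0.21 and 0.28 from edgeR), and that of Ctsd with no filter, at 0.42 (adjusted p = 0.058 from edgeR). DESeq2 kept the calls of Ctsd and Ppargc1a there (adjusted p = 8.3e-05 and 0.0015 from DESeq2). With the replicate block none of the 4 pathway genes called in the Flcn/Tfe3 cross was called, Rragd being at 1.29 (adjusted p = 0.052 from edgeR). Counting alone would give a coefficient of variation of 28.1% for Tfec, against 46.0% observed over the 35 libraries, and 9.05% for Fnip1, against 18.2%.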
